A study of Rattus norvegicus with 6 samples.

Results

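The matrix metalloproteinases (MMPs), the ADAM, ADAMTS and ADAMTS-like proteins and the tissue inhibitors of metalloproteinases (TIMPs) of the rat were taken from the count table by gene symbol, which gave 80 of its 29884 genes. They comprised 23 MMP, 29 ADAM, 19 ADAMTS, 5 ADAMTS-like (Adamtsl) and 4 TIMP genes. Expression was measured by RNA sequencing in sciatic nerve of wild type rats after chronic constriction injury (CCI), a model that ties loose ligatures on the nerve and leads to lasting neuropathic pain. The untreated group held 3 libraries from injured nerve, and the conduit group 3 libraries from injured nerve treated with PLLA-PCL-RVC, a polymer nerve wrap that the series text calls piezoelectric and that carries ropivacaine, a local anaesthetic. Both groups were injured, so no library shows intact nerve, and the labels used here give no strain, age or time after injury. They also do not say whether each library came from its own animal, so a p-value here reflects only how the 6 libraries scatter, and that scatter may be technical.

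Metalloproteinases of these families carry a zinc ion in the catalytic site. Secreted and membrane-type MMPs cleave matrix and cell surface proteins, ADAMs release the outer parts of membrane proteins (shedding), and ADAMTS enzymes cut proteoglycans and process procollagen. ADAMTS-like proteins have the ancillary domains of ADAMTS enzymes without a protease domain, and TIMPs bind and block the active site. In injured nerve, Schwann cells, fibroblasts and infiltrating macrophages are known sources of these enzymes, which are studied there for the opening of the blood-nerve barrier, the breakdown of myelin and matrix, and pain.

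Library totals ran from 38401951 to 42225086 counts. The summed skeletal muscle markers were at 11083 CPM (counts scaled to library totals after TMM normalisation) in untreated replicate 1 and at 11.2 to 83.9 CPM in the other 5 libraries. The labels give 5 batch numbers, none of which holds both groups, so batch and treatment cannot be told apart in any result here. Schwann cell myelin markers, which define peripheral nerve, were detected in all libraries, at 11435 to 26998 CPM in the untreated and 162353 to 210494 CPM in the conduit group. In bulk tissue, fewer cells of a type and less RNA per cell cannot be told apart.

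Of the 80 genes, 14 had no count in any library, 9 were below the minimum for testing, and 57 were tested. Between the groups, 39 of the 57 passed an adjusted p of 0.05 (edgeR quasi-likelihood test, Benjamini-Hochberg over all 15464 genes tested), while 50.2% of all genes tested passed. By direction, 21 were higher in conduit nerves, where 24.0% of all genes tested were higher, and 18 were lower, where 26.2% of all were lower. Differences of at least 2-fold were called for 33 of the 57, beside 29.8% of all genes. Libraries of the groups did not overlap for 43 of the 57, beside 61.7% of all genes. The median log2 fold change (conduit minus untreated) was 0.34 over the 57 and -0.04 over all genes tested. Of the 18 that fell, Mmp3, Mmp9, Mmp13 and Adamts18 reached the count minimum only in untreated libraries, and could therefore only be tested because they were high there. Adamts8 reached it in 3 untreated libraries and 1 conduit library, so it too was tested only because it was high in the untreated group. Scaling by library totals in place of TMM shifted all genes by a median of -0.39 on the log2 scale. The calls among all genes were then 2291 higher and 6554 lower, against 3711 and 4049 with TMM, and those among the 57 were 17 higher and 19 lower.

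**Figure D1:**
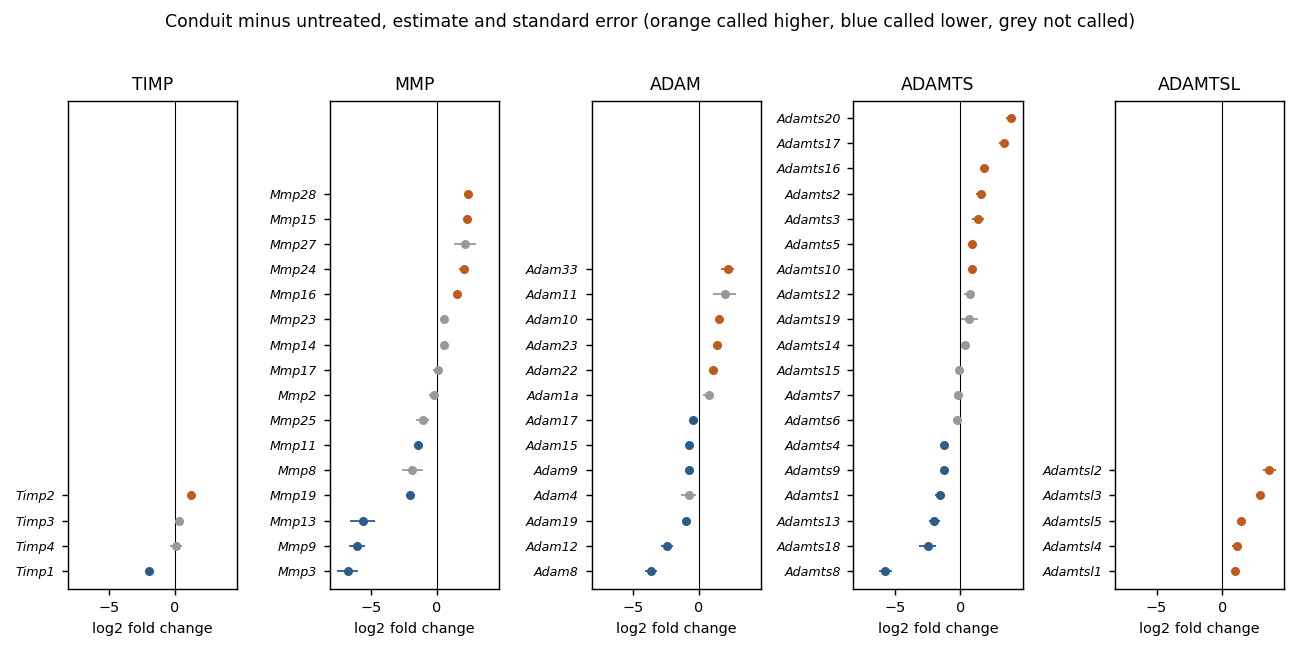
Log2 fold change of each of the 57 tested genes (x axis, conduit minus untreated, bars are standard errors) by family. Values run from -6.79 for Mmp3 to 3.83 for Adamts20, and all 5 Adamtsl genes lie to the right of 0.

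The TIMPs exchanged places. Timp1, an inhibitor that is induced in injured tissue, fell 4.00-fold, while Timp2, which both inhibits MMPs and takes part in the activation of pro-MMP2 by MMP14, rose 2.34-fold. Timp1 reached 469, 407 and 348 CPM in untreated libraries and 106, 108 and 91.4 CPM in the conduit libraries. Every conduit library was below every untreated one (log2 fold change -2.00 ± 0.16 SE, edgeR adjusted p = 0.000134). Timp2 was at 625, 552 and 857 CPM in untreated and at 1487, 1662 and 1607 CPM in conduit libraries. The groups were again apart, with conduit nerves higher (1.23 ± 0.19 SE, adjusted p = 0.0018).

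Timp3, which binds to the matrix and also blocks ADAM17, was at 766, 1190 and 864 CPM in untreated and 998, 1350 and 1113 CPM in conduit libraries. Its groups overlapped (0.30 ± 0.21 SE, adjusted p = 0.276). The least abundant inhibitor was Timp4, at 15.3 ± 7.89 CPM in untreated and 16.2 ± 8.24 CPM in conduit nerves (SD, n = 3). It did not pass (0.08 ± 0.46 SE, adjusted p = 0.898). Scaling by library totals turned the estimate of Timp3 to -0.10 and that of Timp4 to -0.29, neither of which passed. All 4 TIMP genes share their position with another protein-coding gene, and strand is not stated for the counts. Timp1, Timp3 and Timp4 lie in the synapsin genes Syn1, Syn3 and Syn2, whose group means were at most 2.04 CPM.

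Levels of different genes were compared per length, as FPKM (fragments scaled by gene length and library total). Timp1 made up 52.0 ± 6.67% of the summed TIMP FPKM in untreated nerves and 13.6 ± 1.53% in conduit nerves (SD, n = 3). For Timp2 the share went from 22.3 ± 5.90% to 53.9 ± 1.78%, and for Timp3 from 24.7 ± 5.52% to 31.4 ± 2.28%. Timp1 was thus the leading inhibitor transcript in all 3 untreated libraries, and Timp2 in all 3 conduit libraries. Shares within a library do not depend on the scaling between libraries. Summed over both families, TIMP FPKM was 2.96 ± 0.617 times MMP FPKM in untreated and 1.79 ± 0.117 times in conduit nerves.

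**Figure D2:**
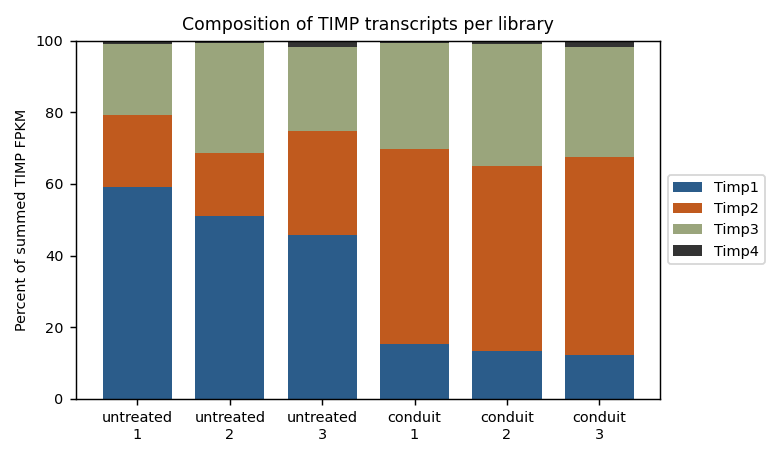
Share of each TIMP in the summed TIMP FPKM (y axis, percent) in each library (x axis). Timp1 holds 45.9 to 59.1% in the untreated and 12.2 to 15.2% in the conduit libraries, where Timp2 holds 51.9 to 55.2%.

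Of the 23 MMP genes 16 were tested (median -0.08, or -0.46 with library totals). Of the 16, 4 rose, 5 fell and 7 did not pass, so that 56.25% were called, beside 50.2% of all genes tested. The gelatinases, which digest denatured collagen and basement membrane collagen, did not move together. Mmp9, the inducible gelatinase of leukocytes and injured Schwann cells, was at 11.2, 13.4 and 4.10 CPM in untreated and at 0.0825, 0.113 and 0.210 CPM in conduit libraries. It fell 68.9-fold (-6.11 ± 0.61 SE, adjusted p = 0.00026), on 15 counts in the conduit group as a whole. Mmp9 reached the count minimum only in untreated libraries, so it was tested only because it was high there. Mmp2, the constitutive gelatinase of fibroblasts, was at 312, 277 and 484 CPM in untreated and at 171, 334 and 412 CPM in conduit libraries. The groups of Mmp2 overlapped (-0.23 ± 0.35 SE, adjusted p = 0.614). Its estimate turned to 0.08 without conduit replicate 1 and to 0.06 without untreated replicate 3. Mmp14, the membrane-type MMP that activates pro-MMP2 at the cell surface, was at 106, 180 and 182 CPM in untreated and 194, 228 and 272 CPM in conduit libraries. The groups of Mmp14 were just apart but the gene did not pass (0.57 ± 0.24 SE, adjusted p = 0.0835), though it did with DESeq2 (adjusted p = 0.0427). In each library Timp2 exceeded both partners per length. The ratio of Timp2 to Mmp2 FPKM was 1.48 to 1.68 in untreated and 3.27 to 7.31 in conduit libraries. That of Timp2 to Mmp14 was 2.07 to 3.97 and 3.99 to 5.17.

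**Figure D3:**
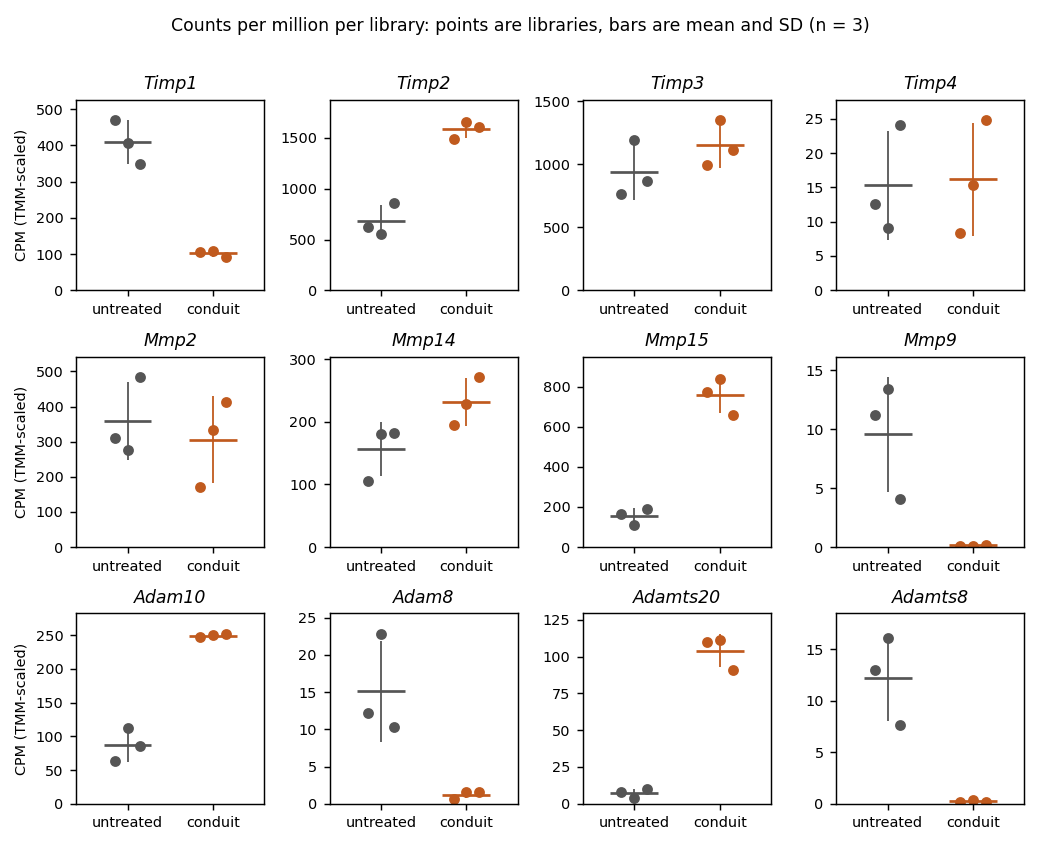
Expression (y axis, CPM) of 12 genes in untreated and conduit libraries (x axis), with points for libraries and bars for mean and SD. Timp1, Mmp9, Adam8 and Adamts8 were lower and Timp2, Mmp15, Adam10 and Adamts20 higher in every conduit library, while Mmp2 and Timp3 overlap.

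Several secreted MMPs known to be induced by injury had counts at or near 0 in conduit nerves. Mmp3, stromelysin-1, which degrades proteoglycans and activates other pro-MMPs, was at 7.79, 3.15 and 5.09 CPM in untreated libraries. In conduit libraries it had 1, 0 and 4 counts (-6.79 ± 0.77 SE, adjusted p = 0.000438). The estimate was -8.27 without conduit replicate 3. Mmp13, a collagenase, had 40, 14 and 29 counts in untreated libraries and 1 count in the conduit group, in replicate 3. The ratio of pooled CPM was 65.6 in favour of untreated nerves (95% exact Poisson interval 11.8 to 2589). The edgeR estimate was -5.65 ± 0.95 SE (adjusted p = 0.00244). Without conduit replicate 3 the conduit group had no Mmp13 count. Such intervals cover counting error of the conduit counts only, with the untreated level held fixed. They are too narrow for this reason too, that PCR copies are not independent molecules. Mmp3 and Mmp13 reached the count minimum only in untreated libraries, and were tested only because they were high there.

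Mmp10, Mmp12 and Mmp7 had too few counts to be tested with the rest. Mmp10, stromelysin-2, had 64, 6 and 3 counts in untreated libraries and 0 in each conduit library. That is at least 6.41-fold lower, taking 3 counts in each conduit library as the floor, and 64 of the 73 counts were in untreated replicate 1, the library with the muscle transcripts. Without that library the bound was 1.16-fold, a check added after seeing the data, as are the next ones of this kind. Mmp12, the macrophage elastase, had 19, 63 and 6 counts against 2, 0 and 0, a ratio of 34.8 (95% interval 9.62 to 287), or 15.3 without untreated replicate 2. Matrilysin, Mmp7, had 6, 14 and 2 counts against 1, 0 and 0, a ratio of 17.4 (95% interval 3.12 to 686), or 9.81 without untreated replicate 2. Fitted without the filter on low counts, Mmp10 (adjusted p = 0.029) and Mmp12 (0.0151) passed and Mmp7 (0.0509) did not. Mmp8, the neutrophil collagenase, was at 3.33, 1.31 and 1.66 CPM in untreated and 0.137, 1.33 and 0.288 CPM in conduit libraries. It did not pass (-1.85 ± 0.80 SE, adjusted p = 0.0928), but did without conduit replicate 2 (-3.26, adjusted p = 0.011), with DESeq2 (adjusted p = 0.0387) and with library totals (0.0441).

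Mmp3, Mmp7, Mmp10, Mmp12 and Mmp13 are neighbours. By RefSeq, 10 Mmp genes follow one another without another protein-coding gene between them, the others being Mmp1, Mmp1b, Mmp8, Mmp20 and Mmp27. In the 3 libraries of untreated nerve, Mmp1 had 2 counts in all and Mmp1b 1, and Mmp20 had none in either group. Mmp27 went against its neighbours, with 21 counts in untreated and 77 in conduit nerves (2.14 ± 0.83 SE), and did not pass (adjusted p = 0.0654). Of the 77 counts 50 were in conduit replicate 3, without which the estimate was 1.32 (adjusted p = 0.25). The DESeq2 test called the gene (adjusted p = 0.0423), as did the fit without untreated replicate 3 (3.19, adjusted p = 0.0292).

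The promoters of this cluster are shown because several of them hold the same motif. RefSeq promoter windows (250 bases before to 50 after the gene start, GRCr8 build, which is not the build of the counts) were found for 55 of the 80 genes, and the first listed window of each was used. They were searched for TGANTCA, whose fixed letters read the same on both strands. This pattern is wider than the AP-1 motif, TGAGTCA or TGACTCA, because N stands for any base. Of 17 MMP windows 7 held TGANTCA, or 41.2%, beside 7.33% of 27457 promoters in the table and 6.60% of those of genes called lower. These are shares of the wider pattern. The 7 were Mmp1, Mmp3, Mmp7, Mmp10, Mmp12, Mmp13 and Mmp20, all in the cluster, with a match 61 to 96 bases before the start, and Mmp1 had a further match. Related neighbouring genes are not independent of one another, so the share is no measure of enrichment. Of the 7, only Mmp3 and Mmp13 were called lower, and the others were not tested. Among the 38 other windows, those of Adam19 and Adam24 held TGANTCA. By call, 3 of 14 windows of genes called lower, 0 of 16 of genes called higher, 0 of 12 of genes not called and 6 of 13 of genes not tested held these letters. The stretch from 120 to 31 bases before the start is given for the 5 genes with more than 20 untreated counts, on the plus strand, with the motif in capitals.
Mmp13 (chr8:12782709-12782798): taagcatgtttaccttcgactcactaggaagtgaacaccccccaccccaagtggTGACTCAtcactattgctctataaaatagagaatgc
Mmp12 (chr8:12866532-12866621): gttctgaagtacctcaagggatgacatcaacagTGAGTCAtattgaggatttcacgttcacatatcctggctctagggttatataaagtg
Mmp3 (chr8:12925161-12925250): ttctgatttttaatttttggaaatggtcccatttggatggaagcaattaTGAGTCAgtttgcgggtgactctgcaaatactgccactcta
Mmp10 (chr8:12974587-12974676): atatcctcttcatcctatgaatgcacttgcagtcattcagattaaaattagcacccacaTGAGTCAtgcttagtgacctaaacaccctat
Mmp7 (chr8:13132923-13133012): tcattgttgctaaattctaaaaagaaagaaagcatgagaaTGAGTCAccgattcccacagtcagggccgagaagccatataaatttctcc
Of these, 4 carry TGAGTCA and Mmp13 carries TGACTCA, which is the same site read from the other strand. The match is a description of the sequence, and no binding was measured. Mmp1b, Mmp8 and Mmp27, in the same cluster, had no match in the window, although Mmp8 had 291 counts in untreated and 63 in conduit nerves. Mmp20, whose match was TGAATCA and so not the AP-1 motif itself, had no count. Windows of Mmp2, Mmp9, Mmp14, Mmp16, Mmp17 and Mmp19 were not searched.

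**Figure D4:**
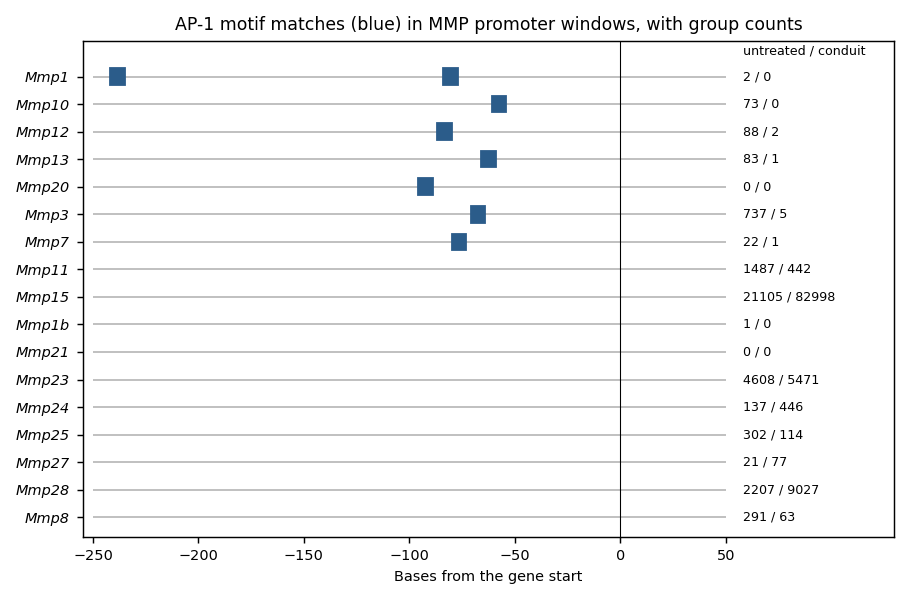
Position of TGANTCA matches (blue) in the promoter windows of 17 MMP genes (x axis, bases from the gene start), with the summed counts of the untreated and conduit groups at the right. The 7 genes with a match have 0 to 5 counts in the conduit group, and Mmp1b and Mmp21, without a match, have 0.

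Among the other MMPs, Mmp19 was at 85.0, 86.0 and 96.3 CPM in untreated and 19.7, 20.6 and 26.1 CPM in conduit libraries. It cleaves basement membrane proteins, and it fell 4.02-fold with the groups apart (-2.01 ± 0.15 SE, adjusted p = 0.000113). Mmp11, stromelysin-3 of stromal cells, fell from 10.5 ± 3.33 to 3.99 ± 1.19 CPM (-1.40 ± 0.33 SE, adjusted p = 0.00992). Mmp28, epilysin, went the other way. It was at 12.7, 12.3 and 23.3 CPM in untreated and 87.0, 82.3 and 77.3 CPM in conduit libraries, a 5.11-fold rise (2.35 ± 0.26 SE, adjusted p = 0.000407). Mmp23, at 33.6 ± 11.9 and 49.9 ± 12.1 CPM, did not pass (0.57 ± 0.28 SE, adjusted p = 0.124), though it did without untreated replicate 3 (0.89, adjusted p = 0.0214). Mmp20 and Mmp21 had no count.

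Of 6 membrane-type MMPs, which act at the cell surface, 3 rose, 0 fell and 3 did not pass. The share called was 50%, beside 50.2% of all genes tested. Mmp15 was at 162, 109 and 189 CPM in untreated and 775, 838 and 659 CPM in conduit libraries. All conduit libraries lay above all untreated ones, a 4.94-fold rise (2.30 ± 0.23 SE, adjusted p = 0.000258). Mmp15 contributed 13.7 ± 2.72% of the summed MMP FPKM in untreated and 44.0 ± 7.81% in conduit nerves, while Mmp2 contributed 39.6 ± 4.31% and 21.6 ± 7.01% (SD, n = 3). The leading MMP transcript was therefore Mmp2 in each untreated and Mmp15 in each conduit library. Mmp16 (1.57 ± 0.35 SE) and Mmp24, an MMP of neural tissue (2.05 ± 0.37 SE), rose at low levels, to 4.64 ± 0.571 and 4.09 ± 1.18 CPM. Mmp24 overlaps Mmp24os, which rose from 29.0 ± 6.59 to 125 ± 29.9 CPM, and without strand their reads cannot be told apart. The lipid-anchored members Mmp17 (0.07 ± 0.34 SE, adjusted p = 0.89) and Mmp25 (-1.08 ± 0.52 SE, adjusted p = 0.126) did not pass. Mmp25 was called lower without conduit replicate 3 (-1.80, adjusted p = 0.0165).

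In the ADAM family, 13 of 29 genes were tested (median -0.45), and 12 had no count. Of the 13, 4 rose and 6 fell, or 76.9% called, beside 50.2% of all genes tested. With library totals 3 rose and 6 fell (median -0.84). The main sheddases moved apart. Adam10, which sheds Notch, cadherins and the prion protein, was at 63.4, 112 and 85.0 CPM in untreated and 247, 250 and 252 CPM in conduit libraries. It rose 2.87-fold, with the groups apart (1.52 ± 0.21 SE, adjusted p = 0.00103). Adam17, which releases tumour necrosis factor and cuts neuregulin 1, was at 101, 105 and 106 CPM against 78.9, 75.7 and 74.1 CPM. Its fall was small, 1.36-fold, with the groups apart (-0.45 ± 0.10 SE, adjusted p = 0.00993). That call was lost without conduit replicate 2 (adjusted p = 0.0657) or 3 (0.0533), and the estimate was -0.84 with library totals. Within libraries the ratio of Adam10 to Adam17 FPKM was 0.681 to 1.16 in untreated and 3.39 to 3.69 in conduit nerves.

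The other catalytic ADAMs that passed fell, apart from Adam33. Adam8, a protease of leukocytes, was at 12.1, 22.8 and 10.3 CPM in untreated and 0.632, 1.55 and 1.55 CPM in conduit libraries. That is a 12.1-fold fall without overlap (-3.60 ± 0.46 SE, adjusted p = 0.000712). Adam12, which is induced in regenerating and fibrotic tissue, was at 38.5, 58.3 and 58.2 CPM against 5.17, 6.42 and 17.8 CPM. Its highest conduit value was in replicate 3, without which the log2 fold change was -3.12 (-2.40 ± 0.47 SE with all libraries, adjusted p = 0.00474). Adam19, a neuregulin-processing relative, fell from 93.2 ± 22.8 to 47.6 ± 9.32 CPM (-0.97 ± 0.22 SE, adjusted p = 0.00865).

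Adam9 (-0.71 ± 0.21 SE, adjusted p = 0.0232) and Adam15 (-0.71 ± 0.18 SE, adjusted p = 0.0133), broadly expressed members, fell less. The call of Adam9 did not hold when leaving out untreated replicate 2 (adjusted p = 0.0564) or 3 (0.0606) or conduit replicate 1 (0.0951) or 2 (0.0765). Adam15 lost it without conduit replicate 1 (0.0525) or 3 (0.0522), and was at -1.10 with library totals. Adam33, a mesenchymal ADAM, was at 2.45, 0.707 and 3.80 CPM in untreated and 10.3, 10.5 and 11.2 CPM in conduit libraries. It rose 4.61-fold (2.21 ± 0.53 SE, adjusted p = 0.0108).

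ADAM11, ADAM22 and ADAM23 lack the catalytic zinc-binding residues and serve as neuronal and glial adhesion receptors, with ADAM22 as the receptor of LGI4 in peripheral myelination. All 3 genes were higher in each conduit library than in any untreated one, and 2 of them passed. Among all genes tested, groups did not overlap for 61.7% and 50.2% passed, in either direction. Adam23 was at 15.8, 17.4 and 23.6 CPM in untreated and 48.5, 64.9 and 39.2 CPM in conduit libraries (1.43 ± 0.23 SE, adjusted p = 0.002). Adam22 was at 0.757, 1.70 and 1.40 CPM against 2.53, 3.39 and 2.57 CPM (1.14 ± 0.37 SE, adjusted p = 0.0378). The call of Adam22 did not hold when leaving out untreated replicate 1 (adjusted p = 0.0772) or 3 (0.0695) or any conduit replicate (0.069, 0.122 and 0.0608), nor with library totals (0.74, adjusted p = 0.134) or without the filter on low counts (0.0539). Adam11, at 0.551 ± 0.650 and 2.17 ± 0.329 CPM, did not pass (1.98 ± 0.86 SE, adjusted p = 0.0921). Without untreated replicate 3, its highest untreated library, it did (3.57, adjusted p = 0.00745), as with DESeq2 (adjusted p = 0.0288).

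The remaining tested ADAMs, Adam1a (0.76 ± 0.41 SE) and Adam4 (-0.74 ± 0.56 SE), had group means of at most 1.54 CPM and did not pass. Most ADAMs known from testis and sperm had few or no counts. Adam2, Adam3a, Adam5, Adam7, Adam21, Adam24, Adam25, Adam26a, Adam30, Adam34 and Adam34l had none in any library, as had Adam28. Adam6, Adam18, Adam1b and Adam32 had 1, 3, 8 and 22 counts over all 6 libraries.

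All 19 ADAMTS genes were tested (median 0.34, or -0.04 with library totals). Of the 19, 7 rose and 6 fell, or 68.4% called, beside 50.2% of all genes tested. Those that cleave versican, aggrecan and related proteoglycans split. Of these 7, Adamts1, Adamts4, Adamts8 and Adamts9 fell, Adamts5 and Adamts20 rose, and Adamts15 did not pass (-0.11 ± 0.22 SE, adjusted p = 0.712). Called were 85.7% of the 7, beside the 50.2% of all genes tested. Adamts8 was at 13.0, 16.1 and 7.66 CPM in untreated and 0.165, 0.396 and 0.131 CPM in conduit libraries. It had the steepest fall among the 19, 52.8-fold (-5.72 ± 0.50 SE, adjusted p = 0.000157), and was at -6.33 without conduit replicate 2. Adamts8 had 6, 14 and 5 counts in conduit libraries, and was tested only because it was high in untreated ones. Adamts20 was at 8.01, 4.10 and 9.92 CPM against 110, 111 and 91.0 CPM. Its 14.2-fold rise was the steepest of the 57 genes tested (3.83 ± 0.32 SE, adjusted p = 0.000144).

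Adamts1, an early injury-responsive proteoglycan protease, was at 89.0, 146 and 126 CPM in untreated and 29.7, 29.8 and 62.0 CPM in conduit libraries (-1.57 ± 0.33 SE, adjusted p = 0.00644). The groups of Adamts1 did not overlap, with conduit replicate 3 the nearest. Adamts4, an aggrecanase, fell from 71.7 ± 14.6 to 30.9 ± 5.19 CPM (-1.22 ± 0.19 SE, adjusted p = 0.00183). Adamts9 fell from 78.1 ± 20.7 to 33.5 ± 11.1 CPM (-1.22 ± 0.27 SE, adjusted p = 0.00812). Adamts5, the other main aggrecanase, rose from 13.1 ± 5.06 to 24.5 ± 3.12 CPM (0.90 ± 0.30 SE, adjusted p = 0.0373). It lost its call with library totals (0.51, adjusted p = 0.202) and without untreated replicate 3 (0.0598) or any conduit replicate (0.0811, 0.0629 and 0.0949).

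Of the procollagen N-proteinases, which remove the amino-terminal propeptide of fibrillar procollagens, 2 of 3 rose. The share called was 66.7%, beside 50.2% of all genes tested. Adamts2 was at 46.4, 61.2 and 109 CPM in untreated and 152, 215 and 265 CPM in conduit libraries. The conduit libraries were all higher, 2.92-fold by the estimate (1.55 ± 0.35 SE, adjusted p = 0.00821). Per length it was the leading ADAMTS transcript of conduit nerves, at 17.5 to 31.9 FPKM, where Adamts1 led in untreated nerves, at 31.6 ± 8.39 FPKM. Adamts3 rose at a low level, to 1.77 ± 0.403 CPM (1.35 ± 0.46 SE, adjusted p = 0.0416). The call did not hold when leaving out untreated replicate 1 (adjusted p = 0.103) or 2 (0.0832) or conduit replicate 1 (0.106) or 2 (0.111), nor with library totals (0.0982) or without the filter (0.0554). Adamts14 did not pass (0.34 ± 0.35 SE, adjusted p = 0.443), but did without untreated replicate 3 (0.87, adjusted p = 0.0174).

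Adamts17 and Adamts10, which act on fibrillin microfibrils, both rose. Adamts17 was at 2.40, 3.80 and 6.31 CPM in untreated and 40.4, 47.9 and 36.4 CPM in conduit libraries, a 9.97-fold rise (3.32 ± 0.34 SE, adjusted p = 0.000304). The rise of Adamts10 was smaller, from 21.2 ± 3.48 to 38.5 ± 4.84 CPM (0.86 ± 0.16 SE, adjusted p = 0.00398), and 0.48 on the log2 scale with library totals. The related pair Adamts16 and Adamts18 parted. Adamts16 rose from 6.51 ± 1.35 to 22.2 ± 5.46 CPM (1.77 ± 0.24 SE, adjusted p = 0.000976). Adamts18 fell on few counts, 15, 15 and 28 in untreated against 2, 1 and 5 in conduit libraries (-2.50 ± 0.67 SE, adjusted p = 0.0173). It was tested only because it reached the count minimum in untreated libraries. The call of Adamts18 did not hold when leaving out untreated replicate 3 (adjusted p = 0.0562) or conduit replicate 1 (0.0676) or 2 (0.0674), and the estimate was -3.21 without conduit replicate 3.

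Adamts13, which cuts von Willebrand factor, fell from 3.85 ± 1.33 to 0.964 ± 0.375 CPM (-1.99 ± 0.41 SE, adjusted p = 0.00587). Adamts12 (0.70 ± 0.43 SE, adjusted p = 0.217), Adamts19 (0.68 ± 0.65 SE, 0.416), Adamts7 (-0.18 ± 0.23 SE, 0.543) and Adamts6 (-0.23 ± 0.37 SE, 0.643) did not pass. Without untreated replicate 3, Adamts12 (1.21, adjusted p = 0.0445) and Adamts19 (1.75, adjusted p = 0.0363) did.

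Every one of the 5 Adamtsl genes rose, at least 2-fold by the estimate, with no overlap between groups (median 1.43). Of all genes tested, 24.0% were called higher and 29.8% were called at 2-fold or more in either direction. Groups did not overlap for 61.7% of all genes. With library totals 4 of the 5 passed, the exception being Adamtsl4. Adamtsl2, which binds fibrillin and a latent transforming growth factor binding protein, was at 1.75, 0.687 and 3.20 CPM in untreated and 26.3, 24.5 and 17.2 CPM in conduit libraries. It rose 12.1-fold (3.60 ± 0.51 SE, adjusted p = 0.00116), or 4.22 on the log2 scale without untreated replicate 3. Adamtsl3 was at 4.11, 7.43 and 10.5 CPM against 52.1, 49.7 and 60.2 CPM, a 7.35-fold rise (2.88 ± 0.32 SE, adjusted p = 0.000418). Conduit libraries were thus several times above the highest untreated one for both genes.

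Adamtsl1, also called punctin, was the most abundant per length, at 8.42 ± 2.23 FPKM in untreated and 12.9 ± 0.709 FPKM in conduit nerves. It rose from 84.6 ± 19.6 to 170 ± 14.2 CPM (1.01 ± 0.18 SE, adjusted p = 0.00339), or 0.61 on the log2 scale with library totals. Adamtsl5 rose from 7.05 ± 2.11 to 18.9 ± 3.84 CPM (1.43 ± 0.26 SE, adjusted p = 0.00355). Adamtsl4, a fibrillin-binding protein, was at 21.7, 14.0 and 38.9 CPM against 39.9, 58.7 and 66.8 CPM (1.15 ± 0.37 SE, adjusted p = 0.035). Its untreated replicate 3 nearly reached the lowest conduit library. This call failed when leaving out untreated replicate 1 (adjusted p = 0.089) or 2 (0.062) or conduit replicate 2 (0.0796) or 3 (0.0838), and with library totals (0.77, adjusted p = 0.107).

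Genes that activate, anchor or clear these proteases went both ways, with 6 of 23 tested higher and 7 lower (median 0.11). Together 56.5% were called, beside 50.2% of all genes tested. The urokinase pair that starts plasmin formation fell, Plau from 64.7 ± 20.7 to 15.4 ± 5.80 CPM (-2.07 ± 0.34 SE) and its receptor Plaur from 27.2 ± 5.35 to 3.18 ± 0.857 CPM (-3.10 ± 0.25 SE). Cd44, a hyaluronan receptor that docks MMP9, fell as well (-2.34 ± 0.22 SE). Reck, a membrane-anchored MMP inhibitor, rose from 54.5 ± 7.59 to 174 ± 49.2 CPM (1.68 ± 0.23 SE, adjusted p = 0.00102). The proprotein convertase Pcsk6 (1.71 ± 0.18 SE) and the matrix proteoglycan Spock2 (2.09 ± 0.31 SE) rose too.

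Partners of ADAM10, ADAM17 and ADAM22 were listed together with the invadopodia adaptors Sh3pxd2a and Sh3pxd2b. Of the 13 genes tested, 7 were higher and 2 lower (median 0.64), or 4 lower with library totals. With TMM 69.2% of this list were called, beside 50.2% of all genes tested. Tspan17, a tetraspanin that escorts ADAM10, rose from 60.8 ± 25.4 to 591 ± 89.2 CPM (3.28 ± 0.34 SE, adjusted p = 0.000302). Tspan5, another ADAM10 tetraspanin, fell (-0.49 ± 0.13 SE, adjusted p = 0.0187), a call that failed when leaving out untreated replicate 1 (0.056) or conduit replicate 1 (0.0874) or 3 (0.0762). Lgi4, the Schwann cell ligand of ADAM22, rose from 103 ± 49.3 to 529 ± 117 CPM (2.36 ± 0.36 SE, adjusted p = 0.00158). Lgi1, whose product binds ADAM22 and ADAM23, rose from 0.779 ± 0.412 to 21.4 ± 3.54 CPM (4.78 ± 0.40 SE, adjusted p = 0.000141). Sh3pxd2b, an adaptor of protease-bearing invadopodia, fell (-0.74 ± 0.14 SE, adjusted p = 0.00381).

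Shed substrates of ADAM10 and ADAM17 were lower for 11 of 21 genes tested and higher for 6 (median -0.86). Of the 21, 81.0% were called, beside 50.2% of all genes tested. Nrg1, neuregulin 1, fell from 36.7 ± 10.8 to 1.70 ± 0.315 CPM (-4.43 ± 0.27 SE). The growth factor Btc (-3.85 ± 0.24 SE) and the neurotrophin receptor Ngfr (-3.62 ± 0.30 SE) fell next most. Tgfa, a ligand of the epidermal growth factor receptor that ADAM17 releases, rose from 17.1 ± 2.61 to 136 ± 17.5 CPM (2.99 ± 0.17 SE). The adhesion molecules Cdh2 (2.28 ± 0.17 SE) and L1cam (2.18 ± 0.25 SE), both cut by ADAM10, rose as well.

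Substrates and partners of ADAMTS proteins had 4 of 20 tested genes higher and 4 lower (median -0.25). Called were 40% of the 20, beside 50.2% of all genes tested. The count of higher genes in this list was 8 without untreated replicate 3, 9 without conduit replicate 1 and 2 without any other single library, and that of lower genes 7 without conduit replicate 3. Library totals gave 2 higher and 9 lower. Vcan, the proteoglycan versican, fell from 196 ± 45.2 to 54.0 ± 6.09 CPM (-1.86 ± 0.19 SE, adjusted p = 0.000307). The thrombospondins Thbs2 (-2.44 ± 0.19 SE) and Thbs1 (-2.64 ± 0.51 SE, or -1.87 without untreated replicate 2) fell too. Col2a1, a fibrillar collagen chain, rose from 18.0 ± 13.5 to 442 ± 42.3 CPM (4.62 ± 0.73 SE), and Hapln2, a hyaluronan link protein of nodes, rose to 18.3 ± 2.41 CPM (2.76 ± 0.21 SE). Col1a1 rose (1.44 ± 0.42 SE, adjusted p = 0.0236) but lost its call with library totals (0.0596) and when leaving out untreated replicate 1 (0.0749) or 2 (0.0675) or conduit replicate 2 (0.065) or 3 (0.0602). Over these lists of surrounding genes, 23 genes were higher and 24 lower, and 16 higher and 33 lower with library totals.

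Markers of cells that make these proteases also differed between the groups. Of all genes tested, 24.0% were higher and 26.2% lower. All 12 macrophage markers fell, with a summed level of 3119 to 3871 CPM in untreated and 483 to 872 CPM in conduit libraries. Without untreated replicate 3 or conduit replicate 1 or 2, 11 of them were called lower. Of 6 neutrophil markers tested 4 fell, and the list's sum was 50.9 to 103 CPM against 9.68 to 17.8 CPM, with 2 lower without conduit replicate 1. The defining granule genes Ltf, Ngp, Camp and Elane had means of at most 0.174 CPM in both groups. All 8 proliferation markers fell, from 335 to 446 CPM in sum to 70.0 to 82.8 CPM. The 10 Schwann cell myelin markers all rose, and of 9 fibroblast and perineurial markers 3 rose and 1 fell, with 0 lower when leaving out untreated replicate 2 or 3 or conduit replicate 1 or 2, and 2 without conduit replicate 3. Endothelial and mural markers overlapped in sum, at 748 to 974 CPM and 694 to 948 CPM, with 1 of 10 higher and 2 lower, or 1 lower without untreated replicate 2 or conduit replicate 1 or 2. Adipocyte markers were highest in conduit replicate 3, at 2738 CPM, and at 547 to 1530 CPM in the other libraries. The part of these cell differences in the falls of Mmp9 and Adam8 or in the rises of Mmp15, Mmp28 and Adamts20 was not tested.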

How the data were processed

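The authors deposited raw counts per gene for 6 libraries and FPKM values per library. The submitters' processing notes name DESeq2, HTSeq, fastp and HISAT2 and the build mRatBN7.2, without roles; versions and strand are not given in the sources used here. For each of 20504 genes checked, a single gene length linked counts to the deposited FPKM in every library (tolerance 0.0001). No row lacked a gene name and 0 columns were left unused.

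Counts of 15464 genes kept by filterByExpr (minimum count 10) were tested in R 4.3.3 with edgeR 4.0.16 (quasi-likelihood F test), with TMM scaling and the group alone in the model. Standard errors are the log2 fold change over the square root of F. The test was tried on simulated data. FPKM served only for levels between genes. Symbols starting with Mmp, Adam or Timp outside the naming rule numbered 3 and were left out. The members and lists were chosen with earlier results of these data known, and lists were described by counts, not tested. Named were all TIMPs, in each family the 2 most abundant members and up to 4 called members at each end, and up to 3 called list genes at each end with at least 5 CPM. All other members were then accounted for. Pcolce2 and Mylpf were not matched. A planned split of ADAMs by a protein motif was not made, and non-catalytic ADAMs were named from background knowledge. By RefSeq, 13 members overlap another protein-coding gene. As alternatives, library totals, RLE scaling, no filter, DESeq2 1.42.0, a filter of 5 CPM in 3 libraries, a replicate block, limma 3.58.1 on log2(FPKM + 1) for genes with at least 0.5 FPKM in 3 libraries, and leaving out each library were run.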

Additional observations from a re-analysis of the deposited data

How the results depend on the processing

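Of the 39 called proteases and inhibitors, 31 kept their call and direction in each of the 13 alternatives that gave a value, 8 lost it in at least 1, and 0 turned direction. The 8 are Adam9, Adam15, Adam17, Adam22, Adamts3, Adamts5, Adamts18 and Adamtsl4. Of the 31, Mmp3, Mmp9 and Mmp13 reached the count minimum only in untreated libraries. Adamts8 reached it in 3 untreated libraries and 1 conduit library, and was likewise tested only through the untreated group. With each library left out, 17 to 25 were higher and 16 to 18 lower, among all genes 2921 to 3774 and 2919 to 4108, and among the genes of the surrounding lists 18 to 27 and 23 to 26. Limma on FPKM gave 2044 genes higher, and 15 higher among the surrounding lists, and library totals 2291 higher and 6554 lower. Both are scaled by totals, and the pseudocount of 1 shrinks changes of low genes, such as Mmp3 (-2.02) and Mmp9 (-2.07). Of 18 uncalled members, 7 changed sign. With library totals Adamts14 was at -0.037, Mmp17 at -0.32, Timp3 at -0.10 and Timp4 at -0.29, and with limma on FPKM Mmp17 was at -0.15, Timp3 at -0.076 and Timp4 at -0.28. With single libraries left out, Mmp2 ran from -0.46 to 0.081, Mmp17 from -0.20 to 0.51, Timp4 from -0.32 to 0.58, Adamts15 from -0.27 to 0.12 and Adamts6 from -0.57 to 0.037. The replicate block called 24 members higher and 18 lower. Deviations of same-numbered libraries from their group means had correlations of 0.146, -0.030 and 0.065, beside -0.151 to 0.106 for the other pairs. With 3 libraries per group these values cannot show whether the numbers mark pairs, and the labels give no more than the number. Under the block Adamts3 did not pass (1.43, adjusted p = 0.0707). Of the 23 members not tested, 14 had no count and 9 had 1 to 90 counts over all libraries, which leaves their differences imprecise.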
